A study of Mus musculus with 64 samples.

Results

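Transcripts of 6 genes associated with mouse monocytes, Lyz2, Ccr2, F13a1, Wfdc17, Ly6c2 and Cybb, were examined in whole blood and in prefrontal cortex, hippocampus and hypothalamus after chronic stress. The genes were taken by symbol, from a list chosen with earlier results of these data known. They make up 6 of the 17058 gene symbols that occur in any of the 4 tables. Total RNA came from male BALB/c mice aged 28 weeks. The stressed mice (UCMS) had gone through 9 weeks of Unpredictable Chronic Mild Stress, a mouse model of major depressive disorder, and the control mice had been left unstressed. The labels name no transgene and no drug. Brain tissue and trunk blood were collected once 14 to 16 hours had passed since the final stressor. Whole blood was represented by 7 control and 9 UCMS libraries, and each brain region by 8 control and 8 UCMS libraries. The 64 libraries came from 17 mice, so tissues share animals, and a replicate number does not always denote the same mouse in blood and in brain.

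Monocytes are short-lived phagocytes that form in the bone marrow and circulate in blood. In mice, the classical subset carries much Ly6C antigen and the chemokine receptor CCR2, with which it leaves the marrow and enters inflamed tissue, whereas the non-classical subset patrols vessels with little of either. In the healthy brain, the resident phagocytes are microglia and border macrophages, and monocytes are found mainly in the vessels.

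All 6 genes were present in the blood table, and each brain table held the other 5 but lacked Wfdc17. The values, normalized by the authors within each tissue, were taken as log2 levels, a scale inferred from the values themselves. Whether they are scaled to transcript length is not known here, so levels of different genes are not compared, and read depth is unknown. In bulk RNA, fewer cells of a type and less RNA per cell cannot be told apart. All 15 microglia genes examined were in every brain table. The blood table held 7 of these 15, P2ry12 among them, and 3 of 7 brain endothelial genes. It lacked Tmem119, C1qa and Cldn5, among others. The labels name no library batch. In the brain, 9 of the 48 libraries stood apart, with a level of the hemoglobin gene Hbb-bs above 12, and they are taken up with the brain values.

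Ly6c2 and Lyz2 each have a close neighbor on the same chromosome, and reads may be shared between the copies, depending on how they were counted, which is not given in the sources used here. In GRCm38 with GENCODE M21, Ly6c2 lies at chr15:75108158-75111970 on the minus strand and Ly6c1 at chr15:75044018-75048830, also on the minus strand. Their coding sequences are 393 bases long, are 97.7% identical, and share 162 of 344 windows of 50 bases (47.1%). The first 90 coding bases, which cross 1 exon junction and hold 6 of the 9 differences, are shown 5′ to 3′ with the differing bases in capitals.

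Ly6c2: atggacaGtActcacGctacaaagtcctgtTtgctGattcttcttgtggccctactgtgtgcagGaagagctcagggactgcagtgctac
Ly6c1: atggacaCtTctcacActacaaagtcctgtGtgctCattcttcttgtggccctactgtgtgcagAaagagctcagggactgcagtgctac

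Lyz2 lies at chr10:117277331-117282321 on the minus strand, beside Lyz1 at chr10:117287797-117292868. Their coding sequences of 444 bases are 95% identical and share 80 of 395 windows of 50 bases (20.3%). Coding bases 43 to 132, within 1 exon, hold 13 of the 22 differences and are shown to mark where reads can tell the copies apart, again with the differing bases in capitals. Ly6c1 was in all 4 tables and Lyz1 in none.

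Lyz2: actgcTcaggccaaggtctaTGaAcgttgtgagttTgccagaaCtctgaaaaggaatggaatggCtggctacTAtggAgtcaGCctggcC
Lyz1: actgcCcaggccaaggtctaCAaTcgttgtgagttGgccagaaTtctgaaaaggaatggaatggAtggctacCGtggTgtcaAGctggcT

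Wfdc17, at chr11:83703991-83706268 on the plus strand, shares 0 of 179 coding windows of 50 bases with either of its family members Wfdc18 and Wfdc21. Ccr2 lies at chr9:124101950-124113557 on the plus strand. F13a1 lies at chr13:36867178-37050244 and Cybb at chrX:9435252-9487771, both on the minus strand.

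In whole blood, none of the 6 genes differed between UCMS and control mice at an adjusted p under 0.05. The largest difference among them was that of Wfdc17, lower in UCMS blood by more than 1 log2 unit, and it did not pass the correction over the table. Lyz2, Ccr2 and F13a1 were each lower by less than 0.5 log2 units, and Ly6c2 and Cybb differed by less than 0.2. The groups overlapped for all 6 genes, as the plot of blood levels shows.

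**Figure D1:**
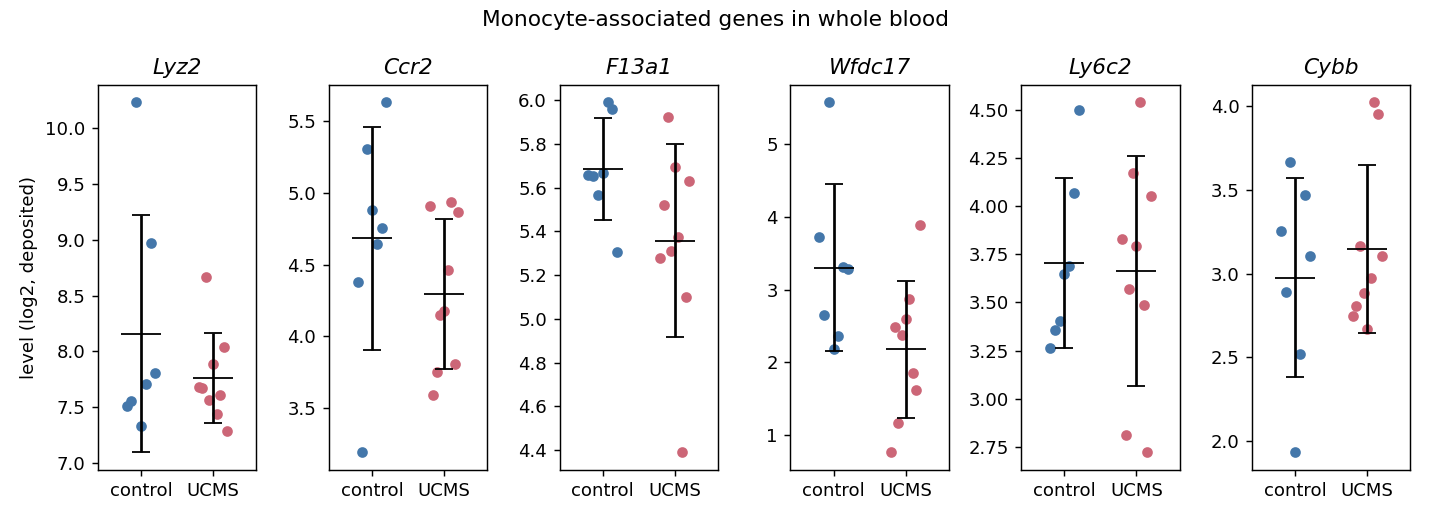
Levels (log2, as deposited) of the 6 genes in whole blood, with 1 point per library, 7 control libraries in blue and 9 UCMS libraries in red; black bars give the mean and SD. The groups overlap for every gene, and 1 control library stands at 10.23 for Lyz2 and at 5.57 for Wfdc17.

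Ccr2 encodes the receptor through which classical monocytes follow CCL2 out of the marrow and into tissue. Its level in blood ranged from 3.19 through a median of 4.76 to 5.63 in control libraries and from 3.59 through 4.18 to 4.94 in UCMS libraries. The UCMS range lay inside the control range. Mean levels were 4.68 ± 0.78 (SD, n = 7) and 4.30 ± 0.53 (SD, n = 9), and the difference, UCMS minus control, was -0.39 (SE 0.29; limma adjusted p = 0.599), with 6 of 9 UCMS libraries below the control median. Without control replicate 2, the lowest library, it was -0.64 (adjusted p = 0.489), and without control replicate 7, the highest, it was -0.23.

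Ly6c2 encodes a GPI-anchored surface protein of the Ly6C antigen by which mouse classical monocytes are sorted. Blood levels ran from 3.27 through 3.65 to 4.498 in control libraries and from 2.72 through 3.79 to 4.54 in UCMS libraries. Both the lowest and the highest value belonged to the UCMS group. The difference was -0.04 (SE 0.24; limma adjusted p = 0.963), and it took the opposite sign, 0.04, without the 2 UCMS animals whose number begins with BS. Its near copy Ly6c1, which brain endothelial cells also express, differed by -0.08 (SE 0.24; limma adjusted p = 0.917).

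Lyz2 encodes the lysozyme of monocytes, macrophages and neutrophils. Its blood level ranged from 7.33 through 7.71 to 10.23 in control libraries and from 7.29 through 7.67 to 8.67 in UCMS libraries. The medians lay close together, and control replicates 3 and 6, at 10.23 and 8.97, were above every UCMS library. Means were 8.16 ± 1.06 (SD, n = 7) and 7.76 ± 0.41 (SD, n = 9), a difference of -0.40 (SE 0.32; limma adjusted p = 0.634). Without control replicate 3 the difference was -0.05.

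Cybb encodes the membrane-bound catalytic subunit of the phagocyte NADPH oxidase, which makes superoxide. Levels went from 1.93 through 3.10 to 3.67 in control blood and from 2.67 through 2.97 to 4.02 in UCMS blood. The difference was 0.17 (SE 0.25; limma adjusted p = 0.808). UCMS replicates 7 and 8, at 4.02 and 3.95, were above all control libraries, and the other UCMS libraries lay within the control range.

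F13a1 encodes the A subunit of coagulation factor XIII, which crosslinks fibrin and is made by monocytes and macrophages as well as by megakaryocytes, the source of platelets. Blood levels ranged from 5.31 through 5.66 to 5.99 in control libraries and from 4.39 through 5.38 to 5.92 in UCMS libraries. UCMS replicate 7 was the lowest at 4.39, and 7 of 9 UCMS libraries were below the control median. The difference was -0.33 (SE 0.18; limma adjusted p = 0.502), and -0.21 without UCMS replicate 7.

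Wfdc17 encodes a small secreted protein of the whey acidic protein family, known in mice from activated macrophages and microglia. Control levels ran from 2.18 through 3.29 to 5.57, and UCMS levels from 0.77 through 2.37 to 3.89. All but 1 of the 9 UCMS libraries, replicate 9, were below the control median, and control replicate 3 was above all other libraries. Means were 3.30 ± 1.15 (SD, n = 7) and 2.18 ± 0.94 (SD, n = 9). The difference was -1.12 (SE 0.45; limma adjusted p = 0.458). The two-sided exact permutation test of this gene alone gave p = 0.0498, and limma gave an unadjusted p of 0.0213. Without control replicate 3, which was also the highest for Lyz2, the difference was -0.74 (limma adjusted p = 0.631).

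Set against the whole table, limma called 0 of 7947 genes tested in blood (0%), while 859 genes (10.8%) were at an unadjusted p under 0.05. Of the 6 members, 5 were lower in UCMS blood, where 51.4% of all genes tested were lower by any amount. Among them, 1 was lower at an unadjusted p under 0.05, where 344 of all genes tested were (4.33%). That member was Wfdc17, and no member was higher at that level. Wfdc17 lay near the low-value filter. The lowest mean over all libraries of a gene tested in blood was 2.48. The control mean of Wfdc17, 3.30, was above that value and its UCMS mean, 2.18, below it. Without the filter its limma adjusted p was 0.477. The members' median difference was -0.36, and that of all genes tested -0.01.

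The 6 genes did not vary as one group among the blood libraries. Over the 16 libraries, centred within treatment, the 15 pairs had Pearson's r from -0.49 (F13a1 and Cybb) to 0.54 (Ccr2 and Ly6c2), and 11 were positive. For the Ccr2 and Ly6c2 pair, r was 0.54 and Spearman's rho 0.51, with adjusted permutation p of 0.351 and 0.416 over the 15 pairs, and r was 0.45 without the 2 libraries farthest from the median of Ccr2. No pair had an adjusted p under 0.05. The label of monocyte genes therefore names cells in which these genes are known to be expressed, and in this bulk blood they are called the 6 genes.

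Among blood cell lists, F13a1 varied with the platelet genes. Its r with the mean level of 17 platelet genes was 0.911 and its rho 0.806 (adjusted permutation p = 0.00288 and 0.00816 over 48 relations of the 6 genes with 8 lists). It was 0.735 without UCMS replicates 7 and 3, the 2 libraries farthest from the F13a1 median, and 0.925 in the 14 libraries without BS animals. The genes most like F13a1 in the whole table were Pcmt1 (r 0.973), Fhl1 (0.959), Mmrn1 (0.958), Ilk (0.957) and Pacsin2 (0.953). Such nearest genes, here and below, were picked for the highest r in the whole table, and their r was not tested. Mmrn1 encodes multimerin, a protein of platelet granules, and Ilk a kinase at integrin adhesions. F13a1 had an r of -0.33 with the mean of the other monocyte genes (adjusted permutation p above 0.05).

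The platelet genes were themselves lower in UCMS blood, without passing the correction. All 17 had a negative difference, 10 of them at an unadjusted p under 0.05, and their median difference was -0.43. Of all genes tested, 51.4% were lower, and 4.33% were lower at an unadjusted p under 0.05. The 17 genes were read in the same libraries and are not separate observations. Examples were Gp1ba, a subunit of the von Willebrand factor receptor, at -0.52 (SE 0.15; limma adjusted p = 0.401), Tubb1, the platelet tubulin, at -0.50, and Nrgn at -0.59. Their mean level ranged from 6.22 to 6.87 in control libraries and from 5.27 to 6.61 in UCMS libraries, and the library with the lowest mean, UCMS replicate 7, also had the lowest F13a1. The part of platelet RNA in the F13a1 difference was not tested.

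Cybb varied with the other monocyte genes, a list of 28 present in the blood table that excludes the 6. Its r with their mean was 0.811 and its rho 0.738 (adjusted permutation p = 0.00624 and 0.0521), and r was 0.758 without control replicate 4 and UCMS replicate 7, and 0.780 in the 14 libraries without BS animals. Among its most similar genes were Lipa (r 0.845), Pi4k2a (0.823), Psap (0.807) and Plxnc1 (0.805). Lipa and Psap encode lysosomal proteins, the acid lipase and prosaposin. Lyz2 had an r of 0.610 and a rho of 0.576 with the same list (adjusted permutation p = 0.128 and 0.131), and r was 0.446 without control replicate 3 and UCMS replicate 3. With the red cell genes, Lyz2 had an r of -0.621 and a rho of -0.5 (adjusted permutation p = 0.134 and 0.24). That r was -0.257 without the same 2 libraries. Among the genes nearest Lyz2 were Ctss (r 0.839), Idh1 (0.811), Sdc3 (0.804) and Hist1h4f (0.783), of which Ctss encodes the antigen-processing protease cathepsin S. Without control replicate 3 and UCMS replicate 3 these r values were 0.774, 0.637, 0.560 and 0.759. Ctss and Psap are themselves on the list of other monocyte genes.

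Ly6c2 varied with its near copy. Over the 16 blood libraries its r with Ly6c1 was 0.857 and its rho 0.868 (adjusted permutation p = 0.00028 and 0.00032 over 4 tissues), and r was 0.848 without UCMS replicates 6 and 8. Next came Stfa2l1 (r 0.854), a stefin-like gene, Clec7a (0.776), the beta-glucan receptor of phagocytes, Chil1 (0.757) and Gm3788 (0.740). In hypothalamus the same pair had r 0.770 and rho 0.732 (adjusted permutation p = 0.00412 and 0.00494), with r 0.689 after leaving out the 2 farthest libraries. In prefrontal cortex r was 0.367 and in hippocampus 0.023 (adjusted permutation p = 0.368 and 0.943). Whether shared reads took part in these values was not tested.

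**Figure D2:**
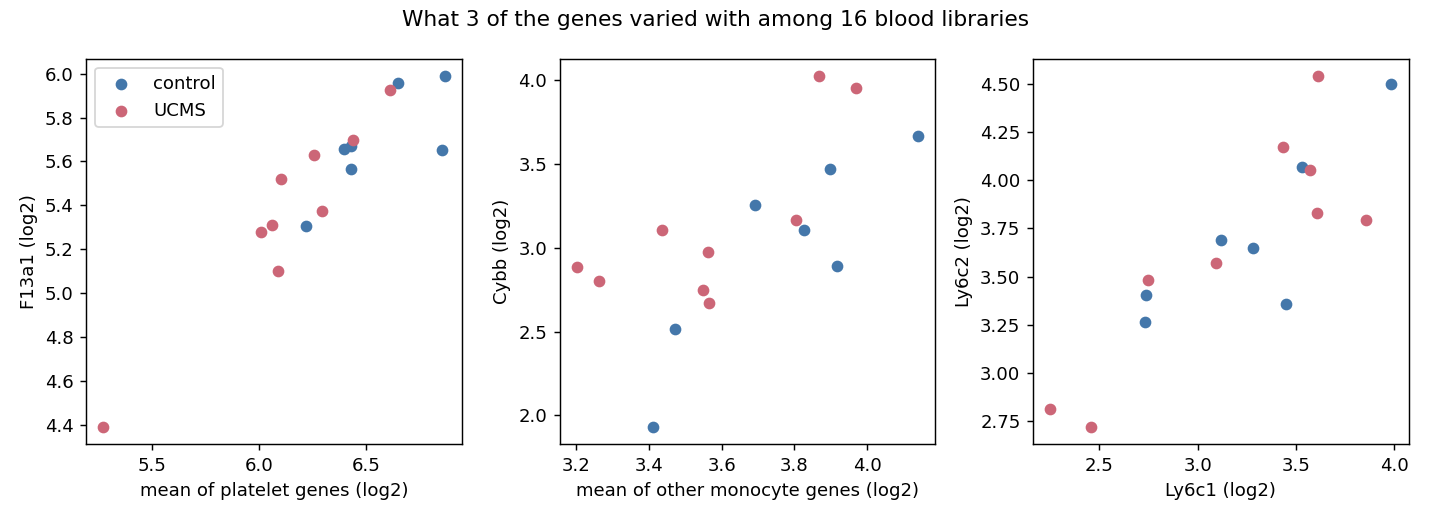
Log2 levels in 16 blood libraries (control blue, UCMS red): F13a1 against the mean of 17 platelet genes, Cybb against the mean of the other monocyte genes, and Ly6c2 against Ly6c1. The r values, centred within treatment, are 0.911, 0.811 and 0.857, and 1 UCMS library is lowest on both axes of the first panel.

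Ccr2, Wfdc17, Ly6c2 and Lyz2 had no list at an adjusted p under 0.05. With the other monocyte genes, r was 0.04 for Ccr2, 0.12 for Wfdc17 and -0.23 for Ly6c2 (adjusted permutation p of 0.95 or more). The genes nearest Ccr2 were Bccip (r 0.923), Pigm (0.867), Sike1 (0.865), Jmjd4 (0.823) and Taf9 (0.823), none of them on the monocyte lists. Those nearest Wfdc17 were Gm6035 (r 0.834), Zc3hav1l (0.755), Ssr4 (0.749), Cd14 (0.743) and H1f0 (0.718), of which Cd14 encodes the lipopolysaccharide co-receptor of monocytes. Their r was 0.557 to 0.699 without control replicate 3 and UCMS replicate 9. With the non-classical list Wfdc17 had an r of -0.633 and a rho of -0.635 (adjusted permutation p = 0.128 and 0.131), and r was -0.461 without control replicate 3 and UCMS replicate 9.

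The wider set of monocyte genes gave no call in blood either. Of 30 other monocyte genes, 28 were in the table and 23 were tested, with 4 higher and 19 lower and a median difference of -0.23. At an unadjusted p under 0.05, 3 were lower and 1 was higher. Of all genes tested, 51.4% were lower, and 4.33% were lower at that level. Fcgr1, the high-affinity IgG receptor, differed by -0.72 (SE 0.28), the chemokine gene Ccl9 by -0.91 (SE 0.36), and Cst3, which encodes cystatin C, by -0.34 (SE 0.15), each with a limma adjusted p of 0.452 to 0.458. Gda, guanine deaminase, was the higher one at 0.50 (SE 0.22).

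The partners of the Cybb protein were all in the blood table. Of the 7 genes of the NADPH oxidase, 6 were lower in UCMS blood, Cybb being the exception, and Ncf1, a cytosolic organizer subunit, had the smallest p, with a difference of -0.51 (SE 0.18; limma adjusted p = 0.430). Rac1 was at -0.36 and Rac2 at -0.26. The share of all genes tested that were lower was 51.4%. Of the lineage transcription factors, Cebpb (-0.52), Cebpa (-0.38), Spi1 (-0.25) and Irf8 (-0.22) were tested, and Cebpb alone was at an unadjusted p under 0.05. The CCR2 ligands Ccl2, Ccl7, Ccl8 and Ccl12 were not in the blood table, and the related receptor genes Ccr1 and Cx3cr1 differed by -0.33 and 0.10.

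Non-classical and other cell types were read from the same fit, in which 51.4% of all genes tested were lower. Of 9 non-classical genes tested, 4 were higher and 5 lower, with Adgre4, an adhesion receptor, at -0.59, Cebpb, which is also on that list, at -0.52, and Itgal and Ear2 at -0.28 and 0.28. All 10 neutrophil genes tested were lower and none at an unadjusted p under 0.05, with Cxcr2 at -0.34, Mmp8 at -0.25, S100a9 at -0.22 and Csf3r at -0.15. Of 12 T cell genes 11 were lower (median -0.16), of 8 B cell genes 5 (median -0.10) and of 5 NK cell genes 2 (median 0.09). Of 7 red cell genes 6 were higher (median 0.16), and Hba-a1 was at the same value, 17.95, in all 16 libraries. Hbb-bs took only 2 values, 14.73 in control replicates 3 and 7 and 15.42 in the others. Among family members, Ly6e was at -0.32, Slpi, another whey acidic protein gene, at -0.37 and Ly6a at 0.31, and no gene of these lists passed the correction.

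In the 3 brain regions, no member differed between UCMS and control mice at an adjusted p under 0.05. The 10% of genes with the lowest mean were left out of the test, and in each region 2 of the 5 members were among them and 3 were tested. Ccr2 was below that limit in all 3 regions, Cybb in prefrontal cortex and hippocampus, and F13a1 in hypothalamus, and for these the fit without the filter is given. The limma fits called 0 genes in each region (0% of 14128, 14016 and 14540 tested). At an unadjusted p under 0.05 were 308 genes of the cortex table (2.18%), 413 of the hippocampus table (2.95%) and 308 of the hypothalamus table (2.12%), and no member tested was among them.

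The lysozyme gene Lyz2 in prefrontal cortex ranged from 3.10 through 3.74 to 6.71 in control libraries and from 3.17 through 3.82 to 6.23 in UCMS libraries. In hippocampus the ranges were 3.32 through 3.59 to 6.23 and 2.995 through 3.78 to 6.40, and in hypothalamus 3.70 through 4.36 to 6.78 and 3.97 through 5.16 to 7.60. The groups overlapped in each region, and 1 or more libraries of each group stood well above the rest. From cortex through hippocampus to hypothalamus the differences were 0.05 (SE 0.49), -0.17 (SE 0.52) and 0.70 (SE 0.58), with limma adjusted p of 0.995, 0.991 and 1. In hypothalamus, 7 of 8 UCMS libraries were above the control median, and the difference was 0.40 without UCMS replicate 6 and 0.99 without control replicate 1.

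Ccr2, the CCL2 receptor gene, ran from 1.19 through 2.14 to 4.85 in control and from 0.84 through 1.96 to 3.33 in UCMS prefrontal cortex. In hippocampus the values were 1.70 through 2.24 to 4.47 and 1.12 through 2.23 to 5.01, and in hypothalamus 1.07 through 2.58 to 5.26 and 1.21 through 2.48 to 4.76. The medians of the 2 groups were within 0.2 log2 units in every region. Without the filter the differences were -0.47, -0.29 and -0.08, each with a limma adjusted p of 0.992 or more.

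F13a1 ranged from 2.38 through 3.17 to 6.66 in control and from 1.91 through 3.31 to 6.15 in UCMS prefrontal cortex, a difference of -0.04 (SE 0.60; limma adjusted p = 0.996). In hippocampus it went from 3.57 through 3.83 to 6.30 and from 2.36 through 3.77 to 6.53, a difference of -0.40 (SE 0.53; limma adjusted p = 0.990). In hypothalamus it went from 1.46 through 1.91 to 4.76 and from 1.46 through 2.04 to 4.24, and the unfiltered difference was 0.0025. As for Lyz2, single libraries of both groups lay far above the others. Without UCMS replicate 6 the hippocampal difference was -0.77, and without control replicate 7 it was -0.13.

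Cybb, which microglia also express, ran from 1.32 through 2.34 to 4.14 and from 1.07 through 2.31 to 4.37 in control and UCMS prefrontal cortex. In hippocampus its values were 2.14 through 2.38 to 4.49 and 1.24 through 2.70 to 4.23, and in hypothalamus 2.26 through 3.30 to 5.06 and 2.56 through 4.09 to 5.63. The tested difference, in hypothalamus, was 0.40 (SE 0.46; limma adjusted p = 1), or 0.15 without UCMS replicate 6 and 0.63 without control replicate 7. The unfiltered ones in prefrontal cortex and hippocampus were 0.08 and -0.29. The groups overlapped in all 3 regions.

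Ly6c2 had the narrowest spread of the 5. Its levels were 3.65 through 3.95 to 4.44 and 3.62 through 3.96 to 4.04 in prefrontal cortex, 3.70 through 3.92 to 4.22 and 3.50 through 3.88 to 4.41 in hippocampus, and 3.85 through 4.53 to 4.78 and 4.06 through 4.36 to 4.72 in hypothalamus, control before UCMS. No library stood far above the others. Differences were -0.08 (SE 0.11), -0.0063 (SE 0.13) and -0.14 (SE 0.12), with limma adjusted p of 0.987, 0.999 and 1. In hypothalamus, 7 of 8 UCMS libraries were below the control median. Ly6c1 differed by -0.02, -0.05 and -0.07 in the 3 regions.

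**Figure D3:**
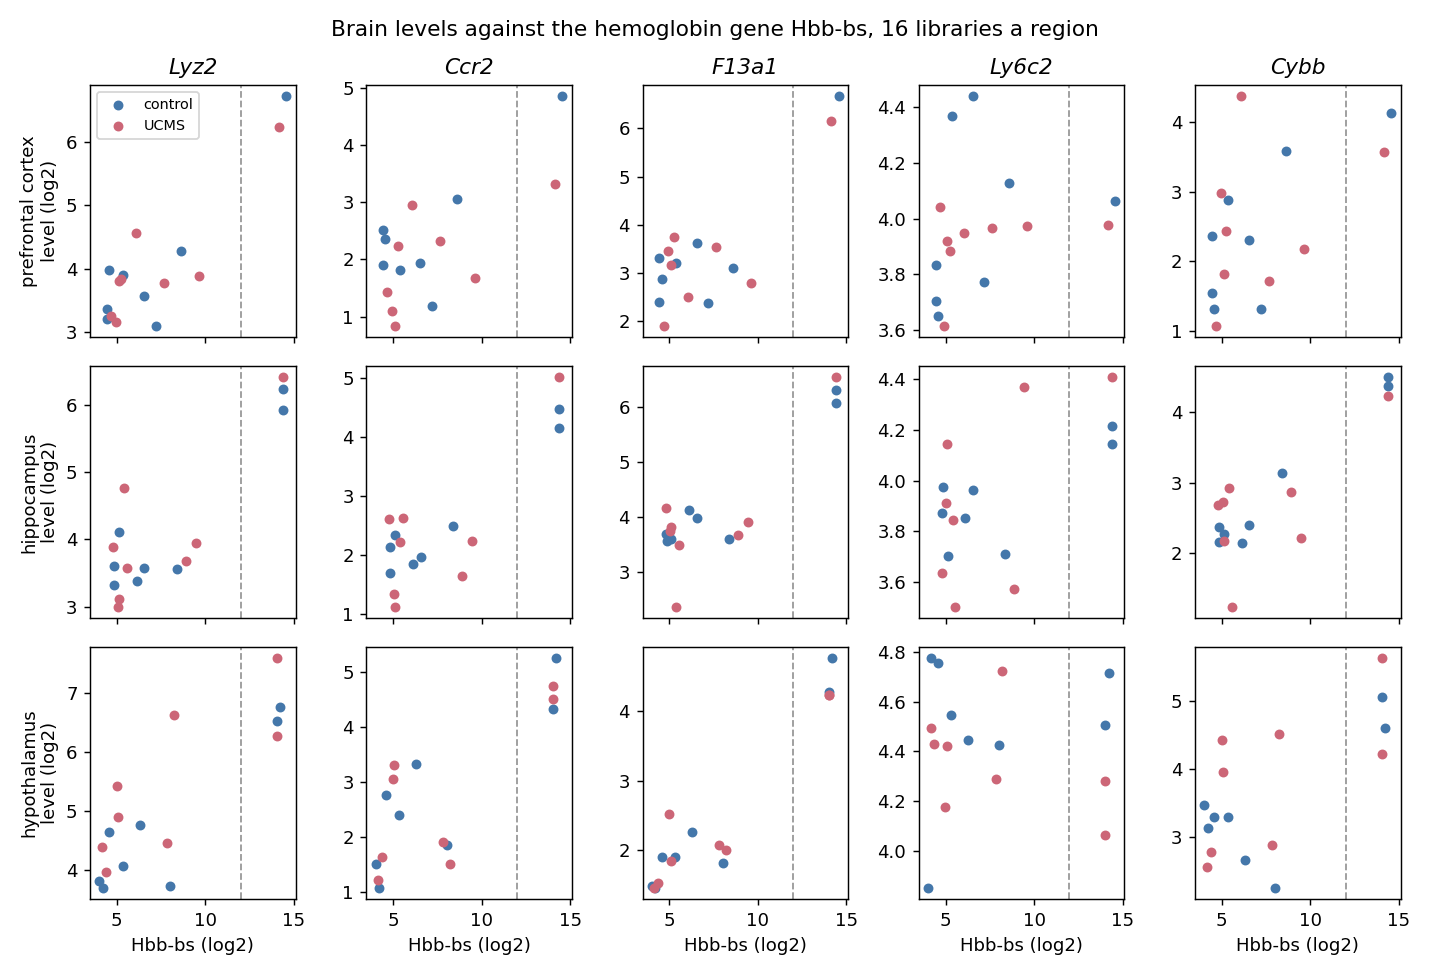
Log2 level of each of the 5 genes against that of Hbb-bs in the 16 libraries of each brain region (control blue, UCMS red); the dashed line marks an Hbb-bs level of 12. Libraries right of the line are the highest for Lyz2 and F13a1 in prefrontal cortex and hippocampus, whereas for Ly6c2 they overlap the others.

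Libraries rich in hemoglobin transcripts were the highest for Ccr2 and F13a1 in all 3 regions, and for Lyz2 in prefrontal cortex and hippocampus. In 9 of 48 brain libraries, 5 control and 4 UCMS from 4 animals, Hbb-bs was above 12, against 9.63 or less in the other 39. Control replicate 1 and UCMS replicate 6 had high Hbb-bs in all 3 regions. Control replicate 7 joined them in hippocampus and hypothalamus, and UCMS replicate 8 in hypothalamus alone, so both groups held such libraries in each region.

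In prefrontal cortex, F13a1 was 6.15 to 6.66 in the hemoglobin-rich libraries and 1.91 to 3.74 in the other 14, Lyz2 was 6.23 to 6.71 against 3.10 to 4.56, and Ccr2 3.33 to 4.85 against 0.84 to 3.06. All 3 had every hemoglobin-rich library above every other, which held for 424 of the 15579 genes with a symbol (2.72%). Cybb, at 3.58 to 4.14, was overlapped by 2 other libraries, UCMS replicate 1 at 4.37 among them. Ly6c2, at 3.98 to 4.06, lay in the middle of the other libraries, which ran from 3.62 to 4.44.

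In hippocampus, 4 of 5 members were separated in the same way, where 446 of 15458 genes were (2.89%). F13a1 was 6.06 to 6.53 against 2.36 to 4.15, Lyz2 5.92 to 6.40 against 2.995 to 4.75, Ccr2 4.15 to 5.01 against 1.12 to 2.62 and Cybb 4.23 to 4.49 against 1.24 to 3.14. Ly6c2 was again the exception, with 1 other library, UCMS replicate 5 at 4.37, among the high ones.

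In hypothalamus, 2 members were separated, where 627 of 16033 genes were (3.91%). F13a1 was 4.23 to 4.76 against 1.46 to 2.53 and Ccr2 4.34 to 5.26 against 1.07 to 3.33. Lyz2 was 6.28 to 7.60 in the hemoglobin-rich libraries, and of the other 12, UCMS replicate 5 reached 6.63. Cybb, at 4.23 to 5.63, was overlapped by 2 others, and Ly6c2, at 4.06 to 4.72, lay among them.

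The genes of other blood cells that had every hemoglobin-rich library above every other differed in number by list and region. Alas2, an enzyme gene of heme synthesis in red cells that was not used to mark these libraries, was 10.59 to 10.99 in them and 1.05 to 4.70 in the other prefrontal cortex libraries. The mean level of the platelet genes was 6.17 to 6.65 against 4.22 to 4.94 there, and 5 of 7 platelet genes in the table were separated in prefrontal cortex, 5 of 7 in hippocampus and 16 of 16 in hypothalamus. Of the neutrophil genes, 2 of 4, 1 of 1 and 6 of 7 were separated in the same order of regions, S100a8 and S100a9 among them in hypothalamus, and their mean in prefrontal cortex overlapped, at 4.96 to 5.46 against 0.82 to 5.02. Of the B cell genes 0 of 1, 1 of 1 and 5 of 6 were separated, and of the T cell genes 2 of 5, 1 of 4 and 3 of 5. Of the other monocyte genes, 2 of 21, 1 of 21 and 3 of 25 were separated, and of the non-classical genes 0 of 6, 0 of 6 and 3 of 8. The NK cell genes were in no brain table. The mean of the microglia genes did not stand apart, at 5.03 to 5.08 against 4.88 to 5.16 in prefrontal cortex, and P2ry12, a purinergic receptor gene also present in blood, was the 1 of 15 microglia genes that was separated in each region. In hypothalamus, only 4 of the 16 platelet genes, 1 of the 7 neutrophil genes and 1 of the 6 B cell genes passed the low-value filter. Genes that low may be in a table only because the hemoglobin-rich libraries are high, so their counts cannot be read as a result. The same limit holds for separated members below the filter, Ccr2 in all 3 regions, Cybb in hippocampus and F13a1 in hypothalamus. The part of blood cell RNA in these member levels was not tested.

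Without the hemoglobin-rich libraries no member tested passed. The SE of Lyz2, F13a1 and Cybb was smaller wherever they were tested both ways, whereas that of Ly6c2 went from 0.11 to 0.13 in prefrontal cortex and from 0.12 to 0.14 in hypothalamus. The difference of Lyz2 in prefrontal cortex was 0.13 (SE 0.22), that in hippocampus 0.11 (SE 0.24) and that in hypothalamus 0.84 (SE 0.39), with limma adjusted p of 0.948, 0.965 and 1. The hypothalamic value had an unadjusted p of 0.0488, with means of 4.12 ± 0.47 in 6 control and 4.96 ± 0.95 in 6 UCMS libraries. Of these UCMS libraries, replicate 5 was at 6.63 and the others ran from 3.97 to 5.43. Its Hbb-bs level, 8.20, was also the highest of the hypothalamus libraries kept. The fit without that library as well was not run. F13a1 in hippocampus was at -0.16 (SE 0.23), and in prefrontal cortex it was below the filter. Cybb in hypothalamus was at 0.50 (SE 0.37; limma adjusted p = 1), and Ly6c2 at -0.08, 0.0082 and -0.04 in the 3 regions.

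**Figure D4:**
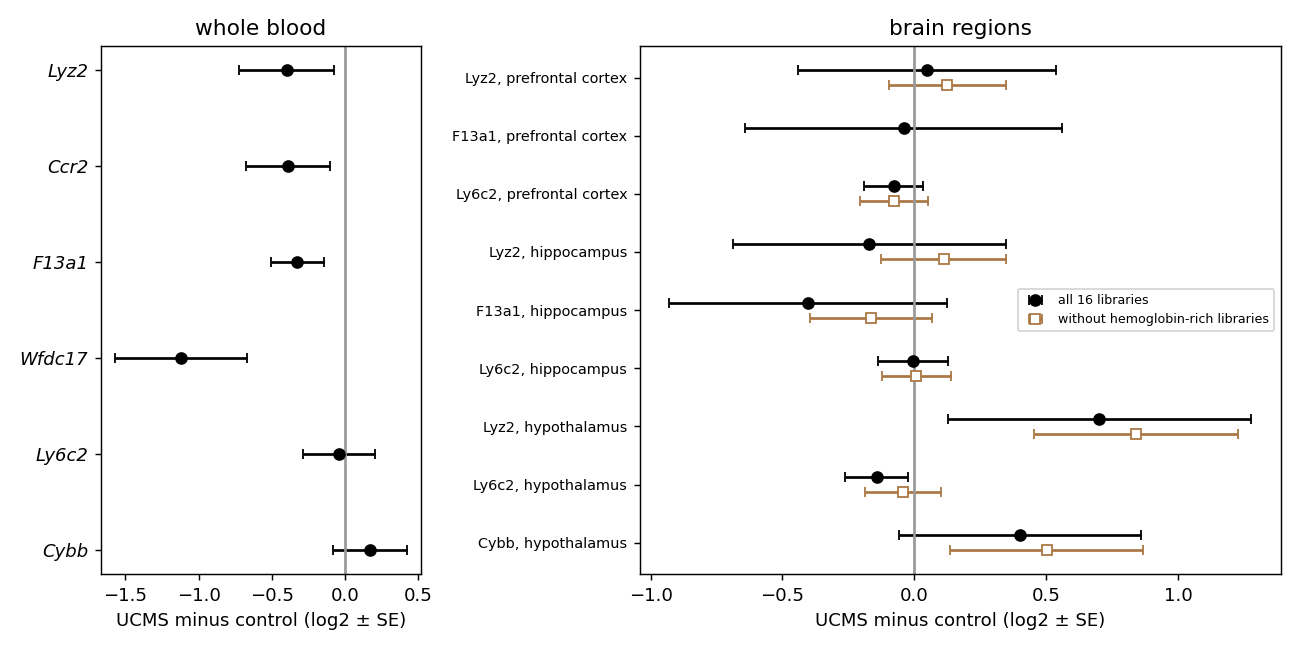
Difference between UCMS and control (log2, ± SE from limma) of each gene tested, in whole blood and in the 3 brain regions; open squares leave out the hemoglobin-rich libraries. In brain every interval of 1 SE is narrower without them for Lyz2, F13a1 and Cybb, and F13a1 in prefrontal cortex has no second value.

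In the brain libraries that were not hemoglobin-rich, the members were compared with each other and with the microglia genes. Over 30 pairs in the 3 regions, r ran from -0.63 to 0.74, the highest for Ccr2 and F13a1 in hypothalamus (rho 0.699, adjusted permutation p = 0.161 and 0.257, n = 12, r 0.841 without 2 libraries), and no pair had an adjusted p under 0.05. With the mean of the microglia genes, Cybb in hippocampus had the highest r, 0.656 (rho 0.676, adjusted permutation p = 0.501 and 0.517 over 30 relations, n = 13, r 0.545 without 2 libraries).

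The brain macrophage and vessel genes gave no call. Of the microglia genes tested, 10 of 15 were higher in UCMS prefrontal cortex, 10 of 14 in hippocampus and 5 of 14 in hypothalamus. Their median differences were 0.009, 0.043 and -0.031 in that order, and those of all genes tested 0.006, 0.0004 and 0.00075. In hippocampus C1qb was at 0.26 (SE 0.12) and C1qa at 0.17 (SE 0.09), both complement genes, with limma adjusted p of 0.990. In prefrontal cortex the smallest p belonged to Aif1 (0.24) and Tmem119 (0.09), and in hypothalamus to C1qc (0.31) and P2ry13 (-0.17). Of the endothelial list, Ly6a was at -0.38, 0.38 and 0.22 and Flt1 at 0.15 and 0.07 in prefrontal cortex and hippocampus, with Cldn5 at -0.14 in hypothalamus. None of the 7 border macrophage genes was in the prefrontal cortex table, and Mrc1, at 3.26 ± 0.36 in control and 2.68 ± 0.55 in UCMS hippocampus (SD, n = 8 each), was below the filter.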

How the data were processed

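Per the labels' protocols, each library took 100 ng of rRNA-depleted total RNA through a directional kit. The submitters' processing notes name the build GRCm38.p4, and the aligner and the counter are unnamed in the sources at hand. The authors deposited 1 table of normalized values per tissue, which were used as log2 levels. The log base and a quantile-type normalization were inferred from the values. Sorted values agreed between libraries within 0.002 at 72.4% of ranks in blood and 88.7% to 89.4% in brain. Read depth is unknown, so precision is given by the spread between libraries. Each table was fitted alone with limma 3.58.1 (R 4.3.3; trended prior variance, two-sided, Benjamini-Hochberg over the table, threshold 0.05), leaving out the 10% of genes with the lowest mean. The fit was tested on simulated data. Correlations used levels centred within treatment and 100000 permutations within treatment (scipy 1.17.1), with Benjamini-Hochberg adjustment over each family; those with gene lists, with Ly6c1 and in brain were chosen after seeing the data. Groups came from sample titles. The labels do not say what a BS animal number means.

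The 6 genes and the gene lists were chosen with earlier results of these data known. Named were the 6 genes, the 5 genes most like each in blood, up to 4 genes per list with the smallest p in blood (2 in brain for microglia, border macrophage and endothelial lists) and family members; a few of these are not reported here. Gene positions and coding sequences came from GENCODE M21 on GRCm38. Alternatives were no filter, a 25% filter, no trend, median centring, leaving out each library, BS animals or hemoglobin-rich libraries, a replicate block and exact permutation tests.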

Additional observations from a re-analysis of the deposited data

Results flagged for a closer look

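Of the 42 combinations of gene and group, 8 held a library whose gap to its nearest neighbor was large against the range of its group by Dixon's criterion, which chance meets in about 1 in 20 groups. In prefrontal cortex these were control replicate 1 for Lyz2 (6.71) and F13a1 (6.66), UCMS replicate 6 for Lyz2 (6.23) and F13a1 (6.15), and UCMS replicate 3 for Ly6c2 (3.62, below the others). In hippocampus UCMS replicate 6 stood out for Ccr2 (5.01) and F13a1 (6.53), and in hypothalamus control replicate 8 for Ly6c2 (3.85, below the others). The 6 high values came from hemoglobin-rich libraries and the 2 low ones from others.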

How the results depend on the processing

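For the differences and the counts of calls, most alternatives kept the sign and the side of the threshold. For Wfdc17 in blood (-1.12), the exact permutation test gave p = 0.0498 and limma an unadjusted p of 0.0213, both under 0.05. The permutation p was not adjusted, and the limma adjusted p was 0.458. The exceptions were as follows. With the 25% filter, which leaves out Wfdc17, 0 members were at an unadjusted p under 0.05 in blood. Ly6c2 in blood was at 0.038 without BS animals. The replicate block gave the same 0.038, because in blood the BS animals have no control library of their number and so drop out. In hippocampus, Lyz2 was at 0.11 and Ly6c2 at 0.0082 without hemoglobin-rich libraries, and Ly6c2 at 0.035 without BS animals. In hypothalamus 1 member, Lyz2, was at an unadjusted p under 0.05 without hemoglobin-rich libraries. Among correlations, Spearman's rho of Lyz2 and Ccr2 in blood was -0.0029 where r was 0.14. The adjusted p of Cybb with the other monocyte genes was 0.00624 for r and 0.0521 for rho. The signs of r and rho differed in 6 of 48 relations with lists in blood and 7 of 30 in brain, none with an adjusted p under 0.05. Leaving out the 2 farthest libraries changed the sign of r in 11 of those 48 and 8 of those 30. It also did so in 4 of 30 pairs of members in brain. The causes were not tested.

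Leaving out 1 library at a time, limma called 0 to 1 genes in blood (1 without UCMS replicate 2) and 0 in each brain region. Members at an unadjusted p under 0.05 numbered 0 to 2 in blood, with Ccr2 added without control replicate 2, F13a1 added without UCMS replicate 3, and none without control replicate 3. They numbered 0 to 1 in hypothalamus, with Ly6c2 at -0.24 without control replicate 8. Genes at that level numbered 336 to 688 in hippocampus, the latter without UCMS replicate 6. Blood differences ran from -0.15 to 0.092 for Ly6c2 and from -0.0027 to 0.29 for Cybb. In prefrontal cortex they ran from -0.26 to 0.43 for Lyz2 and from -0.43 to 0.42 for F13a1. In hippocampus they ran from -0.51 to 0.12 for Lyz2 and from -0.075 to 0.054 for Ly6c2, and in hypothalamus from 0.40 to 0.99 for Lyz2 and from 0.15 to 0.63 for Cybb.

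The labels do not say that replicate numbers pair control and UCMS mice. Same-numbered control and UCMS libraries correlated from -0.26 to 0.25 in blood and from -0.45 to 0.55 in brain after removing group means. Differently numbered libraries were not set beside them, so these values cannot settle whether the numbers pair mice. With the replicate block, limma called 0 genes in each tissue, 850 genes in blood were at an unadjusted p under 0.05, and Wfdc17 was at -1.28 (adjusted p = 0.459). In each brain region 2 of the 5 members were below the filter, and their values come from the unfiltered fit.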
